A study of Rattus norvegicus with 82 samples.

Results

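The Iroquois homeobox genes Irx1, Irx2, Irx3, Irx4, Irx5 and Irx6 were taken by gene symbol from the table of the cardiomyocyte sequencing, which lists all 6 of them among 17337 genes. Of the 6, 5 had enough reads to be tested among 11954 genes, and Irx6 did not. RNA came from cardiomyocytes prepared from each ventricle of 41 rats, right (RV) and left (LV), the first-generation offspring of Wistar Kyoto females and Lewis males, which gave 82 libraries in 12 groups. Rats had been sham-operated, or carried a clip around the pulmonary artery (PAB for banding, a load on the RV) or on the aorta (AOB, a load on the LV). The compensated, hypertrophic stage is marked H and the decompensated, failing stage F. By the labels, the H groups were 11 weeks old and 7 weeks after surgery (Sham-H with 7 animals, PAB-H with 6 and AOB-H with 6). The 6 PAB-F animals were 28 weeks old and 22 weeks after surgery, and the 9 Sham-F and 7 AOB-F animals were 31 weeks old and 26 weeks after surgery. PAB-F animals were therefore younger than their Sham-F controls by these labels. The study's article gives higher ages for every group, and the treatment protocol in the labels gives an age at surgery that cannot be reconciled with either, so the ages are uncertain. There were 3 males in Sham-H, 2 in AOB-H and 4 in each of the remaining 4 conditions, and the other animals were female. Each animal gave 1 library per ventricle. The ventricles were separated after perfusion with collagenase, and with which of them the septum was digested is not given in the sources used here.

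Iroquois genes encode transcription factors with a homeodomain of the TALE class and are named after a fly gene needed for bristle pattern. In mammals they lie in a pair of clusters that arose by duplication. In the heart, Irx4 marks the ventricles from early development, Irx3 and Irx5 take part in the patterning of conduction and of repolarization across the ventricular wall, and Irx1 and Irx2 have been linked to the ventricular septum.

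By gene order in RefSeq, Irx4, Irx2 and Irx1 follow each other on rat chromosome 1, and Irx6, Irx5 and Irx3 on chromosome 19. The sequences upstream of the chromosome 1 members are shown because these neighbours differed most from each other between the ventricles, as given in the values that follow. Of the 6 members 4 had a promoter in the RefSeq table (build GRCr8), and the 250 bases before the annotated start are printed 5′ to 3′ on the strand of the gene. Irx1 lies on the plus strand at chr1:33122872-33123121, Irx2 on the minus strand at chr1:32494931-32495180 and Irx4 on the minus strand at chr1:31868090-31868339. Capitals mark the letters CANNTG (the E box, bound by basic helix-loop-helix factors) and GGTGTGA (the core of a T-box site), searched on both strands.
Irx1: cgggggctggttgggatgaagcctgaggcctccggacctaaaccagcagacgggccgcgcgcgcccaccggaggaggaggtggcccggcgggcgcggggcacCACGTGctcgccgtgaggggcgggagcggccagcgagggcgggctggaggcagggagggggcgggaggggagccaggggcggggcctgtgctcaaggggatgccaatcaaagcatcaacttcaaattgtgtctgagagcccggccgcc
Irx2: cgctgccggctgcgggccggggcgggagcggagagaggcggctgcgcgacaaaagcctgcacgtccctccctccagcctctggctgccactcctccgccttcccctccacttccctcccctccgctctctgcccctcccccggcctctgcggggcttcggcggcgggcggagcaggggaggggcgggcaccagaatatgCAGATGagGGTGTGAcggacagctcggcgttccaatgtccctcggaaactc
Irx4: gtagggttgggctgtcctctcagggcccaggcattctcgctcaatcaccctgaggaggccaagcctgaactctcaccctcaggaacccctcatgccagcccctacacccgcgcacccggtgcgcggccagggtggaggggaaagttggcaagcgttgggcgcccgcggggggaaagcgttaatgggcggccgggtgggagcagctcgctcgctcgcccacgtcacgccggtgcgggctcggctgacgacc
The GC content of these windows was 72.8% for Irx1, 71.6% for Irx2 and 69.2% for Irx4, beside a median of 51.2% over 33469 rat promoters of the same length, and they held 23, 23 and 22 CpG dinucleotides. An E box was found 1 time each for Irx1 and Irx2 and 0 times for Irx4, where 65.5% of all promoters hold one. The T-box core was found 1 time for Irx2 and 0 times for Irx1 and Irx4, where 3.22% of promoters hold it. The GC box (GGGCGG) occurred 4 times for Irx1, 3 times for Irx2 and 1 time for Irx4 (30.5% of promoters have at least 1), the CCAAT box 1, 1 and 0 times (34%), and the TATA box (TATAAA) 0 times for all 3 (12.9%). Such matches are letters in a window and were not tested as binding sites.

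Levels per gene length were read from the deposited FPKM values (fragments scaled to gene length and library size). Over the 82 libraries the median FPKM level was 20.1 for Irx5, 18.3 for Irx3, 13.1 for Irx4, 1.39 for Irx2 and 0.737 for Irx1. The order Irx5, Irx3, Irx4, Irx2, Irx1 also held for the medians of each ventricle. The median FPKM levels in the LV were 20.3, 17.8, 11.9, 3.47 and 2.82 in that order, and in the RV 20.1, 19.6, 14.9, 0.305 and 0.195. Single libraries did not all follow it. Irx5 was above Irx3 in 28 of 41 LV and 27 of 41 RV libraries, Irx4 took the third place in 34 of 41 libraries of each ventricle, and Irx2 was above Irx1 in 34 of 41 LV and 33 of 41 RV libraries. Irx6 had 8 counts in all, at most 2 in any library, and 0 counts in 75 of 82 libraries. A count of 0 in a library allows up to 3 counts, which corresponds to between 0.149 and 0.367 CPM (counts of a gene per 1000000 of the library) depending on its depth, so Irx6 was at or under the limit of detection everywhere. Floors and intervals of this kind cover counting error only.

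Total counts per library lay between 6675287 and 19665439. From here on, levels of a gene are CPM of the effective library size (raw counts scaled by TMM, the trimmed mean of M values), and differences are log2 fold changes with the standard error (SE) from edgeR's quasi-likelihood test, adjusted by Benjamini-Hochberg over 11954 genes with a threshold of 0.05. The labels name no batch, and p-values measure the spread between these animals. All 9 ventricular cardiomyocyte markers (Myl2, Myh6, Tnnt2 and others) were listed, with a summed level of 40358 to 128300 CPM in the LV and 57130 to 143713 CPM in the RV. The 10 fibroblast markers summed to 366 to 1913 CPM in the LV and 230 to 2914 CPM in the RV, and the 7 endothelial markers to 1008 to 3858 CPM and 630 to 2330 CPM. Among the fibroblast markers, Col1a2 was at 0 in 71 of the 82 libraries. The 7 conduction system markers summed to 86.0 to 314 CPM in the LV and 110 to 377 CPM in the RV. In LV and RV libraries the 4 atrial markers summed to at most 30.8 and 89.6 CPM, the 7 mural markers to at most 1160 and 911 CPM, and the 8 macrophage markers to at most 590.1 and 281 CPM. Adipocyte markers reached at most 5.43 and 1.30 CPM, mesothelial markers 116 and 92.2 CPM and Schwann cell markers 24.6 and 26.7 CPM. In such bulk samples fewer cells of a type and less RNA per cell cannot be told apart.

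Irx1 and Irx2 were low in the RV and higher in the LV in every animal. In sham-operated rats of the H stage, Irx1 had a lowest, median and highest level of 0.926, 3.45 and 11.0 CPM in the LV and of 0.107, 0.287 and 0.737 CPM in the RV. In Sham-F it had 7.30, 8.05 and 9.61 CPM in the LV and 0, 0.559 and 0.772 CPM in the RV. The highest RV library of each sham group was below the lowest LV library. Under pulmonary artery banding the lowest, median and highest levels of Irx1 were 2.81, 5.79 and 7.51 CPM in LV PAB-H and 0.0736, 0.245 and 0.465 CPM in RV PAB-H, and 1.91, 6.20 and 10.8 CPM in LV PAB-F and 0, 0.383 and 1.71 CPM in RV PAB-F. Under aortic banding they were 1.96, 4.6 and 8.16 CPM in LV AOB-H and 0.183, 0.459 and 1.82 CPM in RV AOB-H, and 2.05, 4.04 and 8.11 CPM in LV AOB-F and 0.320, 0.60 and 1.03 CPM in RV AOB-F. The ventricles thus did not overlap for Irx1 in any of the 6 conditions. The share of all genes tested whose RV libraries lay below the LV libraries with no overlap was 2.99% in Sham-H, 0.351% in PAB-H, 1.91% in AOB-H, 19.4% in Sham-F, 9.29% in PAB-F and 12.9% in AOB-F.

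**Figure D1:**
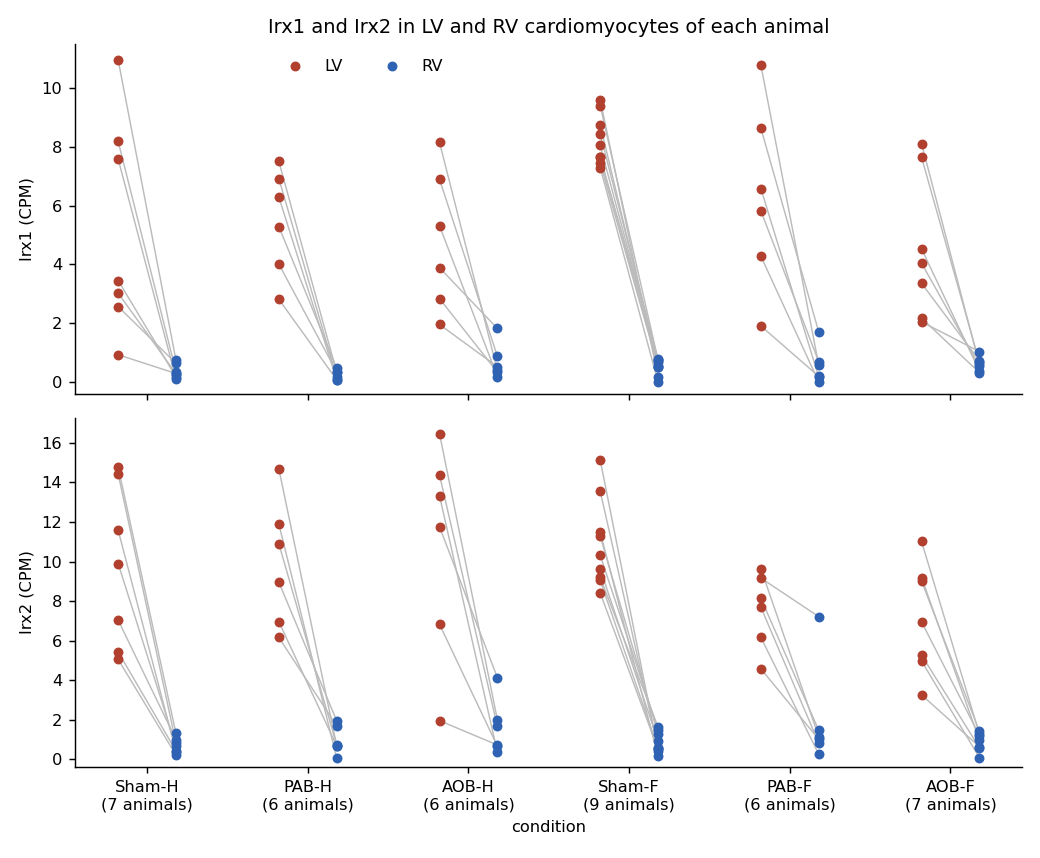
Level of Irx1 and of Irx2 (CPM, linear axis) in the LV and RV cardiomyocytes of each of the 41 rats, by condition, with a line joining the 2 libraries of 1 animal. Every line falls from LV to RV, and the RV points lie at or below 1.82 CPM for Irx1 and 7.21 CPM for Irx2.

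Irx2 had levels of 5.05, 9.89 and 14.8 CPM (lowest, median, highest) in LV Sham-H and 0.215, 0.653 and 1.31 CPM in RV Sham-H. In Sham-F it had 8.41, 10.3 and 15.1 CPM in the LV and 0.153, 0.579 and 1.64 CPM in the RV. Both sham groups showed a gap between the ventricles. In PAB-H the levels of Irx2 were 6.16, 9.93 and 14.7 CPM in the LV and 0.0785, 0.711 and 1.95 CPM in the RV, and in AOB-F they were 3.26, 6.95 and 11.0 CPM and 0.0899, 0.969 and 1.42 CPM. The ventricles overlapped in the other two conditions. In AOB-H the LV levels of Irx2 were 1.96, 12.5 and 16.5 CPM and the RV levels 0.367, 1.20 and 4.13 CPM, and in PAB-F they were 4.58, 7.92 and 9.64 CPM and 0.263, 1.08 and 7.21 CPM. In AOB-H the overlap rested on LV replicate 6 (1.96 CPM), the library with the lowest total count, since the next LV library had 6.82 CPM. In PAB-F it rested on RV replicate 6. The latter and RV replicate 5 of AOB-H had the highest RV levels of Irx2, and they were also the highest of all RV libraries for Irx1, at 1.71 and 1.82 CPM. Both came from females.

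Paired by animal, the RV level of Irx1 was below the LV level in 41 of 41 rats, and so was that of Irx2, which 1.67% of all genes tested showed. In the quasi-likelihood fit of edgeR with the animal as a block, Irx1 was lower in the RV by 13.4-fold in Sham-H (log2 fold change -3.74, SE 0.43, adjusted p = 3.4e-08) and by 16.1-fold in Sham-F (-4.01, SE 0.35, adjusted p = 3.0e-13). The fold was 22.1 in PAB-H, 12.1 in PAB-F, 7.10 in AOB-H and 6.93 in AOB-F, with adjusted p between 3.0e-13 and 4.5e-06 over the 6 conditions. Irx2 was lower in the RV by 14.6-fold in Sham-H (-3.87, SE 0.41, adjusted p = 7.6e-09), 13.3-fold in Sham-F, 10.5-fold in PAB-H, 5.17-fold in PAB-F, 7.12-fold in AOB-H and 8.01-fold in AOB-F, with adjusted p between 2.2e-12 and 3.5e-06. Genes called between the ventricles made up 32.5% of all genes in Sham-H, 1.51% in PAB-H, 13.7% in AOB-H, 77.2% in Sham-F, 66.3% in PAB-F and 70.6% in AOB-F. Ordered by log2 fold change from the lowest, Irx1 stood at place 2 in Sham-H, 1 in PAB-H, 9 in AOB-H, 1 in Sham-F, 2 in PAB-F and 33 in AOB-F among the 11954 genes. Irx2 stood at places 1, 3, 8, 6, 17 and 16 in these conditions. The RV values rest on few reads, with a median raw count of 5 for Irx1 and 10 for Irx2 in the RV against 92 and 137 in the LV, and Irx1 had 0 counts in 2 RV libraries.

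In the order of the 12 group means, all 6 LV groups stood above all 6 RV groups for Irx1 and for Irx2. The gap between the lowest LV mean (AOB-F, 4.56 CPM ± 2.45 for Irx1 and 7.09 CPM ± 2.77 for Irx2, SD, n = 7) and the highest RV mean exceeded the larger SD of the 2 groups. That highest RV mean was 0.689 CPM ± 0.602 (SD, n = 6) in AOB-H for Irx1 and 1.99 CPM ± 2.59 (SD, n = 6) in PAB-F for Irx2. No other neighbours in either order differed by more than their spread. For Irx1 the order within the LV ran from Sham-F (8.26 CPM) over PAB-F (6.34), PAB-H (5.47), Sham-H (5.24) and AOB-H (4.84) to AOB-F (4.56).

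Outside PAB-H, endothelial markers were called lower in the RV too. In Sham-H 6 of 7 endothelial markers were called lower in the RV, in AOB-H and AOB-F 6 of 7, in Sham-F and PAB-F 4 of 7, and in PAB-H 0 of 7. Of the 9 fibroblast markers tested, 2 were lower in the RV in Sham-H, 6 in Sham-F, 4 in PAB-F, 1 in AOB-H, 7 in AOB-F and 0 in PAB-H. Over all 11954 genes tested, those called lower in the RV numbered 1773 in Sham-H, 64 in PAB-H and 1110 in AOB-H. In Sham-F, PAB-F and AOB-F they numbered 4779, 3849 and 4305, so the marker counts there stand beside a high background. With the summarised fibroblast and endothelial marker levels of each library as covariates, Irx1 and Irx2 stayed lower in the RV in all 6 conditions, with log2 fold changes of -3.56 to -1.70 for Irx1 and of -3.44 to -1.94 for Irx2. The edgeR calls were then lost in AOB-H (adjusted p = 0.23 for Irx1 and 0.14 for Irx2) and for Irx1 in AOB-F (adjusted p = 0.069). With a conduction system score as covariate, a choice made after seeing the data, all 12 calls of the pair held.

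**Figure D2:**
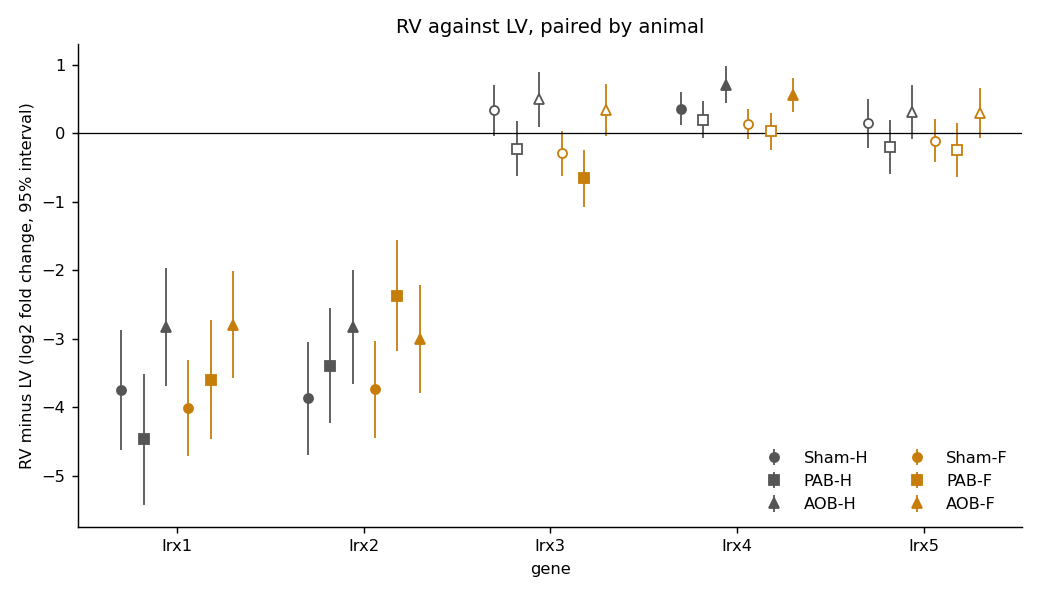
Log2 fold change of RV against LV (edgeR, paired by animal) with the 95% confidence interval for the 5 members tested in each of the 6 conditions. Irx1 and Irx2 lie between -4.47 and -2.37 in all conditions, and Irx3, Irx4 and Irx5 between -0.66 and 0.71.

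Irx4, the ventricular member, was on average higher in the RV. Its lowest, median and highest levels were 25.1, 32.6 and 39.7 CPM in LV Sham-H and 38.7, 41.2 and 51 CPM in RV Sham-H, and 24.2, 33.2 and 48.2 CPM in LV Sham-F and 28.8, 42.7 and 51.3 CPM in RV Sham-F. In AOB-H they were 12.5, 24.5 and 31.0 CPM in the LV and 34.5, 37 and 46.2 CPM in the RV, and in AOB-F 19.5, 27.6 and 51.2 CPM and 29.3, 39 and 78.9 CPM. The ventricles were apart in AOB-H and overlapped in the other conditions named. The share of all genes with the RV above the LV and no overlap was not computed. The RV was above the LV in 33 of 41 animals, which 24.2% of all genes tested reached or passed. Irx4 rose in the RV against the LV in Sham-H (0.36, SE 0.12, edgeR adjusted p = 0.022), AOB-H (0.71, SE 0.14, adjusted p = 1.6e-04, 6 of 6 animals) and AOB-F (0.56, SE 0.12, adjusted p = 1.2e-04, 7 of 7 animals). The values of 0.20 in PAB-H, 0.13 in Sham-F and 0.03 in PAB-F did not pass. Genes called made up 32.5% of all genes in Sham-H, 13.7% in AOB-H and 70.6% in AOB-F. Ordered from the highest log2 fold change, Irx4 stood at places 2535, 347 and 3201 there. In Sham-H the call was lost without the block by animal (0.35, adjusted p = 0.15). With the fibroblast and endothelial scores as covariates Irx4 was called in none of the conditions by edgeR, with values of 0.20 in Sham-H, 0.50 in AOB-H and 0.17 in AOB-F.

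Irx3 and Irx5, the neighbours on chromosome 19, differed little between the ventricles. Irx5 had medians of 32.3 CPM in LV Sham-H, 29.5 CPM in RV Sham-H, 34.7 CPM in LV Sham-F and 31.8 CPM in RV Sham-F. Its RV minus LV values ran from -0.25 to 0.32 over the 6 conditions and none passed (lowest adjusted p of edgeR 0.13). With the conduction system score as covariate, Irx5 (0.47) and Irx3 (0.48) both passed in AOB-F. Irx3 had levels of 14.4, 29.6 and 46.5 CPM in LV Sham-H, 28.4, 33.7 and 44.5 CPM in RV Sham-H, 26.8, 38.7 and 48.9 CPM in LV Sham-F and 17.5, 33.4 and 39.7 CPM in RV Sham-F, and the groups overlapped at both stages. It fell in the RV against the LV of PAB-F (-0.66, SE 0.20, edgeR adjusted p = 0.0046, lower in 5 of 6 animals). In PAB-F 66.3% of all genes were called, and Irx3 stood at place 2334 from the lowest log2 fold change. With the fibroblast and endothelial scores as covariates the call of Irx3 in PAB-F was lost (-0.50, adjusted p = 0.061). In the other conditions its values lay between -0.29 and 0.50 and did not pass, though Sham-F did in a fit of only its animals (-0.27, adjusted p = 0.037). The difference of PAB-F from Sham-F did not pass (-0.37, adjusted p = 0.44). For Irx3, Irx4 and Irx5 no neighbours in the order of the 12 group means differed by more than the larger SD. The counting is not stated to use strand, so reads of Irx5 and of any transcript running in the opposite direction beside it cannot be told apart.

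Nearest genes outside the clusters were set beside the members. Next to Irx1, Med10 had RV minus LV values of 0.02 to 0.28 and was called only in AOB-F, and Ube2ql1 had -0.34 to 0.23 and was called only in Sham-F. Beside Irx3, Fto had values of -0.04 to 0.16 with a call only in Sham-F, and Rpgrip1l was higher in the RV of Sham-F (1.3), PAB-F (1.06) and AOB-F (0.95). Mmp2, the gene of a matrix metalloproteinase on the far side of Irx6, was lower in the RV of both sham groups and both failing groups, with values of -2.16 to -0.74. Mrpl36 and Ndufs6 beside Irx4 and Capns2 beyond Mmp2 had too few reads to be tested. None of the neighbours tested showed a fall between the ventricles in every condition, as Irx1 and Irx2 did.

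The question whether banding altered the difference between the ventricles was put to the contrast of the paired differences. All these contrasts share the sham animals of their stage. Genes called made up 0.0418% of all genes tested for PAB-H minus Sham-H, 0% for AOB-H minus Sham-H, 2.92% for PAB-F minus Sham-F, 0.00837% for AOB-F minus Sham-F and 49.8% for Sham-F minus Sham-H. For AOB-H minus Sham-H edgeR and DESeq2 both called 0 genes, and 1181 genes had an unadjusted p under 0.05 in edgeR. Of 25 values over the 5 members, 1 passed: the RV minus LV difference of Irx3 was 0.34 in Sham-H and -0.29 in Sham-F, which differed by -0.63 (SE 0.25, edgeR adjusted p = 0.033). Irx1 and Irx2 had values of -0.72 to 1.37, with 95% intervals as wide as -2.17 to 0.72 for Irx1 in PAB-H, so these tests leave wide limits at the depth of the RV libraries. Irx2 in PAB-F minus Sham-F had 1.37 (adjusted p = 0.16) and Irx1 in AOB-F minus Sham-F had 1.22 (adjusted p = 0.32).

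Comparing a banded group with the sham libraries of that ventricle and stage asks whether the members respond to the load itself. The comparisons of 1 stage and ventricle share their sham libraries. Genes called made up 4.50% of all genes in RV PAB-H, 0% in LV PAB-H, 0% in RV AOB-H, 0.0167% in LV AOB-H, 11.1% in RV PAB-F, 0% in LV PAB-F, 0.0669% in RV AOB-F and 12.9% in LV AOB-F. In the 3 comparisons without a call by edgeR, DESeq2 also called 0 genes, and 305, 171 and 454 genes in LV PAB-H, RV AOB-H and LV PAB-F had an unadjusted p under 0.05 in edgeR. This fit of group means took its spread from all 82 libraries, with both libraries of an animal as if independent. Of the 40 values of the members 2 passed, both for Irx3, in RV PAB-F and LV AOB-F. In fits of only the groups compared, with 1 library per animal, neither passed. Irx3 then had -0.69 (edgeR adjusted p = 0.051) in RV PAB-F and -0.75 (adjusted p = 0.082) in LV AOB-F. In RV PAB-F, Irx3 had 9.59, 17.4 and 33.7 CPM (lowest, median, highest) against 17.5, 33.4 and 39.7 CPM in RV Sham-F, a fall of 1.61-fold (-0.68, SE 0.23, edgeR adjusted p = 0.038). In LV AOB-F it had 16.4, 19.7 and 40.8 CPM against 26.8, 38.7 and 48.9 CPM in LV Sham-F, a fall of 1.64-fold (-0.72, SE 0.21, adjusted p = 0.018). The groups overlapped in both comparisons. In the ventricle without the load Irx3 had -0.36 in LV PAB-F and -0.14 in RV AOB-F, which did not pass. The response of Irx3 was not shown to differ between the ventricles, since the contrasts of its paired differences were -0.37 (adjusted p = 0.44) for PAB-F minus Sham-F and 0.63 (adjusted p = 0.27) for AOB-F minus Sham-F.

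**Figure D3:**
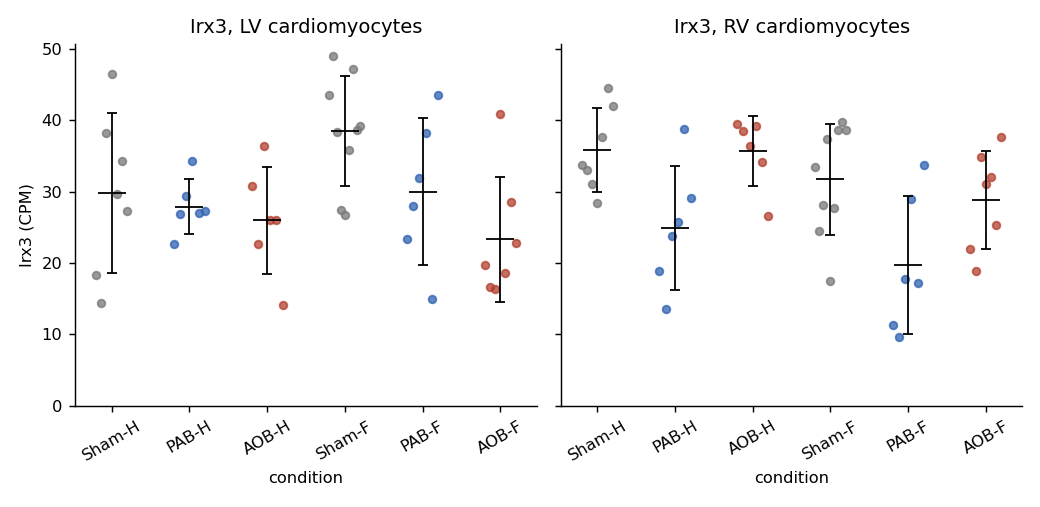
Level of Irx3 (CPM, linear axis) in each library of the 12 groups, with the group mean and SD. The PAB-F RV and AOB-F LV groups have medians of 17.4 and 19.7 CPM beside 33.4 and 38.7 CPM in the Sham-F groups of the same ventricle.

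The call in RV PAB-F was lost when any 1 of 8 of the 15 animals was left out (Sham-F replicates 4, 7, 8 and 9 and PAB-F replicates 1, 2, 3 and 5), with values between -0.65 and -0.54 without these. Over all 15 the values ran from -0.90 to -0.54. With fibroblast and endothelial scores as covariates, an alternative added after seeing the data, Irx3 had -0.48 (edgeR adjusted p = 0.32) in RV PAB-F and -0.56 (adjusted p = 0.0502) in LV AOB-F, neither of which passed. Beside these falls, 6 of 9 fibroblast markers were higher in RV PAB-F, where 916 of all 11954 genes tested were called higher. For LV AOB-F the count was 1 of 9 markers, beside 1021 of the 11954 genes. The part of these markers in the result was not tested further.

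Irx5, the neighbour of Irx3, had -0.34 in both of these comparisons (adjusted p = 0.29 for the RV and 0.25 for the LV) and did not pass in any. Irx2 in RV PAB-F had a level above RV Sham-F by 1.25 (SE 0.46, adjusted p = 0.064), which dropped to 0.18 without PAB-F replicate 6. Irx1 in LV AOB-F had -0.85 (SE 0.36, adjusted p = 0.10). Irx4 had values between -0.51 (LV AOB-H, adjusted p = 0.14) and 0.26, none of which passed.

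Age was compared in the sham groups, 11 against 31 weeks by the labels. Genes called made up 0.0502% of all genes in the RV and 57.4% in the LV. Of the 10 values of the members 0 passed in edgeR, 0 passed in DESeq2 and 0 had an unadjusted p under 0.05 in edgeR. In the LV Irx1 had 0.64 (SE 0.35, adjusted p = 0.11) and Irx3 had 0.36 (SE 0.21, adjusted p = 0.13). Without Sham-H replicate 4 both passed, at 0.93 and 0.51.

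Sex was added as a term to the group means. Genes called between females and males made up 17.2% of all genes, and both libraries of an animal entered this fit as if independent, so its p-values are too small. Irx4 was higher in females by 0.30 (SE 0.07, edgeR adjusted p = 9.9e-04), with a higher female mean in 10 of 12 groups. In the LV, where each animal enters 1 time, Irx4 had medians of 27.8 CPM in 21 males and 32.5 CPM in 20 females (0.26, adjusted p = 0.11), and in the RV 34.3 and 42.8 CPM (0.35, adjusted p = 0.011). Genes called made up 10.1% in the LV alone and 8.04% in the RV alone.

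Irx1 and Irx2 differed between the sexes in the RV and not by the test in the LV. Irx1 had lowest, median and highest RV levels of 0, 0.320 and 0.752 CPM in males and 0.0736, 0.596 and 1.82 CPM in females. Irx2 had 0.0785, 0.640 and 1.67 CPM in males and 0.433, 1.0 and 7.21 CPM in females. These levels rest on few reads, with a median raw count of 5 for Irx1 and 10 for Irx2 over all RV libraries. The male median of Irx1 lies within the 0.149 to 0.367 CPM that a count of 0 allows. The sexes overlapped for both genes, and the female mean was higher in 6 of 6 conditions for each. In the RV it was also higher in 6 of 6 conditions for Irx5, 5 of 6 for Irx3 and 4 of 6 for Irx4. The share of all genes with 6 of 6 was not computed. In the RV alone Irx1 was higher in females by 0.98 (SE 0.31, edgeR adjusted p = 0.041) and Irx2 by 1.15 (SE 0.30, adjusted p = 0.015). Irx3 had 0.26 (adjusted p = 0.19) and Irx5 0.24 (adjusted p = 0.081) in the RV, which did not pass. In the LV alone the differences were -0.16 for Irx1 and 0.04 for Irx2, where the medians of males and females were 6.58 and 6.09 CPM and 9.05 and 9.19 CPM.

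**Figure D4:**
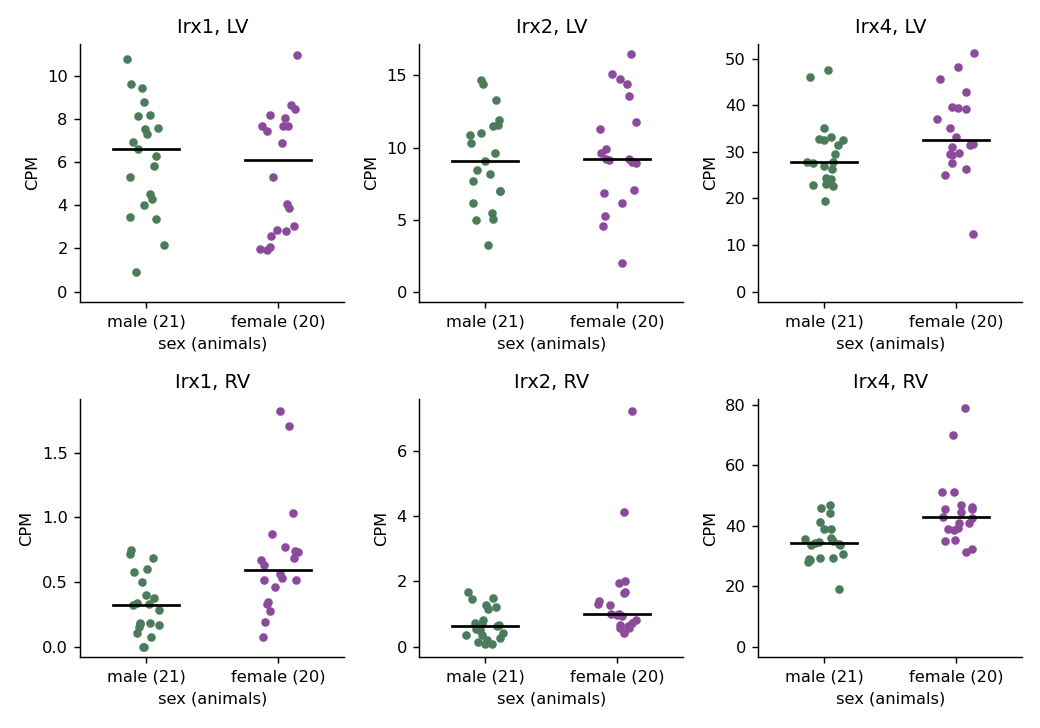
Level (CPM, linear axes) of Irx1, Irx2 and Irx4 in the LV and RV cardiomyocytes of 21 male and 20 female rats, 1 point per animal. In the RV, the medians of females and males were 0.596 and 0.320 CPM for Irx1, 1.0 and 0.640 CPM for Irx2 and 42.8 and 34.3 CPM for Irx4, bars mark the medians and the sexes overlap in every panel.

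The difference between the ventricles was therefore tested for a difference between the sexes, in the paired fit with a female term on RV minus LV, which was added after the RV values had been seen. Genes called made up 4.42% of all genes. The median RV minus LV difference of log2 CPM was -3.91 in males and -2.98 in females for Irx1, and -3.65 and -2.90 for Irx2. Females had a smaller gap by 1.16 for Irx1 (SE 0.33, edgeR adjusted p = 0.036) and by 1.12 for Irx2 (SE 0.30, adjusted p = 0.027). Irx3 had 0.20, Irx4 0.10 and Irx5 0.31, none of which passed. For Irx1 and Irx2 the RV side of this test rests on the same few reads. With the fibroblast and endothelial scores as covariates the values were 0.97 (adjusted p = 0.19) for Irx1 and 0.90 (adjusted p = 0.17) for Irx2. Summed fibroblast markers had RV medians of 544 CPM in males and 421 CPM in females, endothelial markers 943 and 770 CPM, cardiomyocyte markers 108861 and 128254 CPM and conduction system markers 161 and 146 CPM. Leaving out 1 animal at a time ended the call for Irx1 with 11 of 41 animals and for Irx2 with 2 of 41 (PAB-H replicate 5 and PAB-F replicate 6). These fits kept the dispersions (spread beyond counting error) of the paired fit of all animals without the sex term. The animal left out was therefore not the only change from the fit reported.

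How the members varied together from animal to animal was described by correlations of log2 CPM (prior count 2) after the mean of each condition had been subtracted, over 41 animals in each ventricle. Of 20 relations, 15 passed an adjusted p of 0.05 (permutation test with 100000 resamples, two-sided, Benjamini-Hochberg over the 20). The share of gene pairs in general that would pass was not computed, so the count is not read as particular to the members. Irx3 and Irx5 had a Pearson r of 0.87 and a Spearman rho of 0.84 in the LV and 0.88 and 0.85 in the RV, with permutation p = 1e-05, the smallest these resamples can give, for each. Without the 2 animals farthest from the median of Irx3, r was 0.82 and 0.87. In the LV, Irx1, Irx2, Irx3 and Irx5 were all related to each other, with r from 0.71 (Irx2 with Irx3) to 0.87. In the RV, Irx1 and Irx2 had an r of 0.53 (rho 0.47, permutation p = 3.4e-04, adjusted p = 8.5e-04) and 0.55 without 2 animals. Irx4 had r between 0.20 and 0.42 with the other members in the LV and between 0.04 and 0.46 in the RV. Leaving out 2 animals left 10 of the 20 relations past the threshold. As a description within single conditions of 6 to 9 animals, Irx1 and Irx2 had an r of 0.85 to 0.90 in 5 conditions of the LV. In LV Sham-F their r was -0.59, where the range of Irx1 was small. Other LV relations were weak in Sham-F too, with r of -0.04 for Irx2 with Irx3 and 0.08 for Irx1 with Irx5. There r was 0.36 for Irx1 with Irx3, 0.35 for Irx2 with Irx5 and 0.72 for Irx3 with Irx5.

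**Figure D5:**
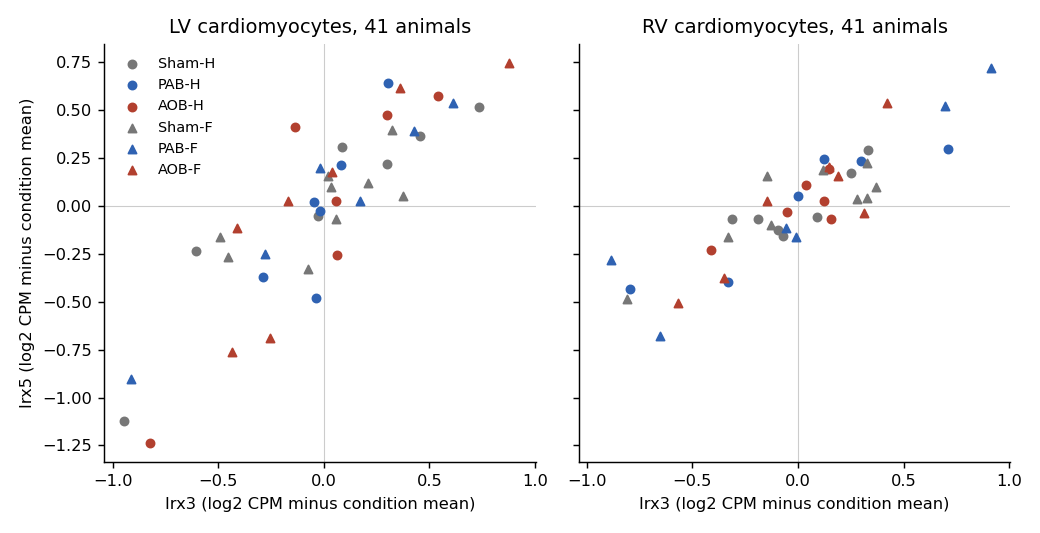
Deviation of Irx5 against that of Irx3 (log2 CPM minus the mean of the condition) in the LV and RV cardiomyocytes of 41 animals, with colours for the treatment and shapes for the stage. Points run along 1 line in both panels, with r of 0.87 and 0.88.

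Across all 82 libraries and 9451 genes with a mean count of at least 50, the gene most like Irx3 in its deviations from the group means was Irx5 (Pearson r 0.85), followed by Trim8 (0.73) and Tfe3 (0.71). Irx5 was followed by Irx3, Lsm2 (0.69) and Adrm1 (0.64). For Irx1 the genes were Lsm2 (0.62), Irx5 (0.61) and Irx2 (0.60), and for Irx2 they were Irx5 (0.57), Lsm2 (0.56) and Eif4ebp1 (0.47). Irx1 had a mean count under 50 and was itself outside this set. Its r with Irx2 was 0.60, above that of Irx5 with Irx2. Irx4 was most like Erbb2 (0.77), Shroom3 (0.74) and Nup210 (0.73), none of them a member. In likeness to Irx3, Irx2 stood at place 458, Irx1 at place 610 and Irx4 at place 853 among these genes. In likeness to Irx5, Irx1 stood at place 17, Irx2 at place 43 and Irx4 at place 856. For Irx1, which was outside the set, the place is the one its r would take among these genes. These are descriptions over libraries of which pairs share an animal.

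Genes described as controlled by Irx proteins in the heart were looked at from a list of 8 that also holds the channel genes Kcnd2 and Kcnd3 of the transient outward potassium current. Counts of those higher and lower in the RV were 4 and 1 in Sham-H, 0 and 0 in PAB-H, 3 and 0 in AOB-H, 4 and 1 in Sham-F, 4 and 1 in PAB-F and 5 and 1 in AOB-F. Over all genes tested the shares called in these conditions were 32.5%, 1.51%, 13.7%, 77.2%, 66.3% and 70.6%, so 5, 5 and 6 of 8 in Sham-F, PAB-F and AOB-F are shares near the background. The median log2 fold change of the 8 was 0.22 in Sham-H and 0.52 in Sham-F, beside -0.01 and -0.05 over all genes tested. In Sham-F, Kcnd2 had a median of 39.5 CPM in the LV and 82.1 CPM in the RV (1.04, SE 0.13, edgeR adjusted p = 1.2e-09). Gja1, the gene of connexin 43, had 612 and 1568 CPM (1.35, SE 0.13, adjusted p = 3.3e-12) and Kcnd3 56.8 and 119 CPM (1.0, SE 0.14, adjusted p = 2.4e-08). Gja5, the gene of connexin 40 of the fast conduction system, was lower in the RV in Sham-F, with 20.1 and 9.27 CPM (-1.04, SE 0.15, adjusted p = 2.5e-08), and in Sham-H (-0.90, adjusted p = 1.3e-04). Upon banding few of them were called: Gja5 was higher in RV PAB-H (0.91, adjusted p = 0.034), Myh7, the slow myosin heavy chain, in RV PAB-F (1.05, adjusted p = 0.018) and Gja1 in LV AOB-F (0.58, adjusted p = 0.033), where Kcnd3 was lower (-0.76, adjusted p = 0.0025).

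Of 6 partners of Irx proteins (Tbx5, Nkx2-5, Gata4, Smyd1, Rxra, Vdr), 1 was higher and 4 were lower in the RV of Sham-F, and 1 was higher and 0 were lower in Sham-H. With 77.2% of all genes called in Sham-F and 32.5% in Sham-H, these counts do not stand out from the background. Smyd1, a muscle methyltransferase, had medians of 285 CPM in the LV and 551 CPM in the RV of Sham-F (0.88, SE 0.08, edgeR adjusted p = 2.0e-12) and Nkx2-5, a cardiac homeobox factor, 238 and 132 CPM (-0.86, SE 0.13, adjusted p = 1.1e-07). In RV PAB-F 2 of the 6 were lower than in RV Sham-F, among them Tbx5 (-0.53, adjusted p = 0.015). Over all 11954 genes tested, 11.1% were called in that comparison and 409 were lower. Of 9 factors of chamber patterning, 8 were listed and 6 tested. Counts higher and lower in the RV were 1 and 0 in Sham-H, 0 and 0 in PAB-H and 1 and 0 in AOB-H. They were 2 and 2 in Sham-F, 1 and 2 in PAB-F and 3 and 2 in AOB-F. Over all genes tested the shares called in these conditions were 32.5%, 1.51%, 13.7%, 77.2%, 66.3% and 70.6%. The 2 lower in Sham-F were Nkx2-5 and Hand2 (-0.47, edgeR adjusted p = 2.8e-04). Hey2, a transcriptional repressor downstream of Notch, had medians of 22.4 and 30.05 CPM in the LV and RV of Sham-H (0.49, adjusted p = 0.023). In Sham-F it had 10.1 and 26.6 CPM (1.47, SE 0.16, adjusted p = 4.2e-11). Hey2 was lower in RV PAB-F than in RV Sham-F (-0.57, adjusted p = 0.026), where 2 of the 6 were lower and 0 higher. None of the genes tested in these 3 lists fell between LV and RV by as much as Irx1 or Irx2 did in the sham groups.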

How the data were processed

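Cardiomyocyte RNA from both ventricles of 41 rats was depleted of ribosomal RNA and sequenced, giving 82 libraries. Per the labels, the submitters' processing notes name Trim Galore, STAR, featureCounts and DESeq2 1.28.1. The authors deposited raw counts per gene, normalized counts (a signal per gene, each library divided by 1 size factor, 0.639 to 1.571) and FPKM values. Whether featureCounts used the strand is not given in the sources used here. The raw counts entered all tests, and the deposited FPKM values only the levels per gene length and the order of the members. The normalized counts entered only the mean count in the study's criteria.

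Tests used edgeR 4.0.16 in R 4.3.3 with TMM factors, filterByExpr by group and Benjamini-Hochberg adjustment over 11954 genes. RV against LV and its differences used 1 quasi-likelihood fit with the animal as a block. By the labels, libraries of 1 animal share an identifier, and their deviations correlated with a median r of 0.186 to 0.297 per condition, against -0.069 to -0.014 for different animals. Banded against sham and age used group means, and sex was added to these. In these fits both libraries of an animal entered as if independent. Levels are CPM of the effective library size. Correlations used SciPy 1.17.1 with 100000 permutations. Promoters were taken from RefSeq (GRCr8).

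The members and gene lists were chosen with earlier results of these data known. All 6 members are named, with at most 4 called genes of each list per comparison by the smallest adjusted p, the 3 genes most like each member and the 2 nearest genes on each side of a cluster. Alternatives were other normalization factors, no filter, DESeq2 1.42.0, covariates, smaller fits, other blocks and single animals left out. Scripts were tested on simulated data. No library was a copy of another (smallest chi-square per gene 4.68). Human, tissue and protein data of the study were not used here.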

Additional observations from a re-analysis of the deposited data

Results flagged for a closer look

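In RV PAB-F, replicate 6 had an Irx2 level of 7.21 CPM, with the next of the 6 libraries at 1.47 CPM and the lowest at 0.263 CPM. Its gap to the next library, divided by the range of the group, was 0.826, above the critical value of Dixon's test for 6 samples. This was 1 of 60 groups of libraries tested over the 5 members, where chance alone would pick about 5% of groups.

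The RV minus LV difference of Irx3 differed between the sham groups of the 2 stages, by -0.63 on the log2 scale (edgeR adjusted p = 0.033). In this contrast 49.8% of all genes tested were called, and 1 of the 5 members. Irx3 stood at place 2293 from the lowest value among the 11954 genes, so the call does not stand out from the background. The call of Irx3 was lost without any of 5 of the 16 animals (Sham-H replicates 1, 2 and 7 and Sham-F replicates 2 and 5), with values of -0.49 to -0.59. These fits kept the dispersions of the paired fit of all animals.

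The RV minus LV difference was smaller in females than in males, by 1.16 for Irx1 (edgeR adjusted p = 0.036) and by 1.12 for Irx2 (adjusted p = 0.027). Without PAB-F replicate 6, the female with the highest RV level of Irx2, the values were 1.06 (adjusted p = 0.073) and 0.94 (adjusted p = 0.062). That fit also kept the dispersions of the paired fit of all animals without the sex term.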

How the results depend on the processing

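Of the 30 values of RV against LV, 16 passed in the fit reported, and 9 did with the fibroblast and endothelial scores as covariates. Leaving out 1 animal at a time gave 15 to 17, and the other settings 12 to 18. Paired fits without single animals, here and for the differences between conditions, kept the dispersions of the paired fit of all animals. Of the 25 differences between conditions 1 passed, 0 without the filter on low counts, and 0 to 1 without single animals. Of the 40 banded against sham values 2 passed, 0 with the marker scores as covariates, 0 in fits of only the groups compared, 0 by the study's criteria (a log2 fold change of at least 1, p under 0.01, a mean count over 50), and 1 to 3 without single animals. For age 0 of 10 passed, and 0 to 2 without single animals. For sex 1 of 5 passed, 2 with DESeq2, 0 in the LV alone, 3 in the RV alone and 1 to 2 without single animals. Of the relations 15 of 20 passed, and 14 with a prior count of 0.5.

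Without the replicate block by animal, 15 of 30 values of RV against LV and 0 of 25 differences between conditions passed, Irx3 in Sham-F minus Sham-H having -0.54 (adjusted p = 0.14). With a block by replicate number, 1 of 40 banded against sham values and 0 of 10 age values passed, and Irx3 in RV PAB-F had -0.64 (adjusted p = 0.058). Within a condition each number stands for 1 animal, with males numbered before females, so such a block partly follows sex. Across conditions the labels tie no animal or batch to these numbers. Correlations of same-numbered samples ran from -0.45 to 0.45 over the 8 comparisons, and from 0.036 to 0.249 in RV PAB-F, not all over 0.1.

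Of 33 results that passed under any setting, 3 turned direction under some setting. Directions turned for Irx3, RV against LV in Sham-F, at 0.060 with the conduction system score, for Irx4 in Sham-F at -0.19 with the fibroblast and endothelial scores, and for Irx1 between the sexes at -0.16 in the LV alone. Of the 82 results that passed under no setting 26 changed sign under at least 1, such as Irx4, RV against LV in PAB-F, in 7 of 15 settings. Irx2 in PAB-H missed the threshold with only the animals compared (adjusted p = 0.052). With the latter fit Irx3 passed in AOB-H (0.48) and Sham-F (-0.27). Irx2 passed with DESeq2 in RV PAB-F (1.23) and between the sexes (0.53). Marker scores for banded against sham, the conduction score, single ventricles for sex and the sex term on RV minus LV were chosen after seeing the data. The causes were not tested. Low RV counts of Irx1 and Irx2 limit what their tests could detect.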
